A study of Homo sapiens with 32 samples.

Results

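The comparison described here is the first step out of mitotic arrest: newly made RNA at 40 minutes against 0 minutes after nocodazole was washed out. The cells were HUH7, an established human hepatoma line. They were held for 24 h in 2 mM thymidine, freed for 2 h and arrested for 16 h in 0.06 ug/mL nocodazole, a drug that blocks microtubule assembly. Mitotic cells were shaken off, washed and replated. New RNA was marked with a 40-minute pulse of 0.5 mM 5-ethynyluridine (EU), a uridine analog that RNA polymerases insert and that can be tied to biotin and captured on streptavidin. The 2 groups differ in time of release only, 0 or 40 minutes, and each holds 3 of the 32 libraries of the series. Whether a stated time is the start or the end of the pulse is not stated in the labels. Cells at 0 minutes were labelled too, so the comparison starts from new RNA of that group. Whether this RNA was made in arrest or in the first 40 minutes after it is therefore not known. In a pooled culture, a larger share of cells that have left mitosis and more new RNA per cell cannot be told apart. The values are also scaled to library depth, so they do not give the amount of new RNA per cell.

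The deposited table gives 1 value for each group, in FPKM (fragments per kilobase of gene model, scaled to library depth), and not 1 value for each of the 3 libraries. No spread between replicates can be seen, so no p-value, standard error or count of tested genes is given, and every difference is a description of 2 pooled values. The same table has 1 column each for 80, 105, 165 and 300 minutes and for asynchronous culture, which are used for context. Of 24242 genes, 18189 reached 10 FPKM in at least 1 of the 2 columns and are the genes described. Differences are log2(FPKM + 1) at 40 minutes minus the same at 0 minutes, so 1 is a doubling. All 14 hepatoma markers examined, among them ALB, HNF4A and FGB, were at 10 FPKM or more in both columns, from 36.2 to 763 FPKM at 0 minutes and from 27.6 to 1150.4 FPKM at 40 minutes. Of 19 blood cell markers in the table, 11 passed the filter, with summed levels over the list of 628 and 858 FPKM at 0 and 40 minutes, and CD68, a lysosomal protein gene, was at 368 and 541. Of 20 markers of stroma and endothelium, 8 passed, with sums of 519 and 644 FPKM, and LUM, or lumican, was at 321 and 438. Both genes stood above ALB. In neither list was a member listed at 0 in both columns, and the part of such cells in the results was not tested.

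When a cell enters mitosis its chromosomes condense, most transcription factors and RNA polymerase II leave the DNA, and elongating polymerases run off or are released. Transcription returns as chromosomes decondense and the nuclear envelope closes around each daughter nucleus. Because RNA polymerase II moves at a finite speed, a polymerase that starts on a short gene reaches its end long before one that starts on a long gene. Immediate early genes, such as FOS and the NR4A receptors, are a group of genes whose transcription starts within minutes of a stimulus without new protein being made. A TATA box is a core promoter element a short way upstream of the start site, bound by the TATA-binding protein of TFIID.

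Most genes were slightly higher at 40 minutes as deposited, a direction that turns when both columns are scaled to the same total. The median difference over all 18189 genes was 0.14, and 12856 genes (70.7%) lay above 0. At least a 2-fold higher value at 40 minutes was found in 529 genes, which is 2.91% of the genes examined, and at least a 2-fold lower value in 323 genes, which is 1.78%. After subtraction of the all-gene median these counts were 424 higher and 403 lower. After both columns were scaled to the same total they were 363 higher and 493 lower, so the balance of the 2 directions depends on the scale. With this scaling the all-gene median was -0.15. At 1.5-fold, 1504 genes (8.27%) were higher and 649 (3.57%) lower.

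The 2-fold genes were mostly small. Among those higher at 40 minutes were 228 of 862 microRNA genes (26.5%) and 181 of 14463 protein-coding genes (1.25%). So were 44 of 1901 long noncoding RNA genes (2.31%) and 36 of 230 small nucleolar RNA genes (15.7%), against 2.91% of all genes. Among those lower were 167 microRNA genes (19.4% of the class), 85 protein-coding genes (0.59%), 41 long noncoding RNA genes (2.16%) and 10 small nucleolar RNA genes (4.35%). Of all genes, 1.78% were lower. The picture differed for coding genes at 100 FPKM or more in either column. Of these 6395 genes, 54 were at least 2-fold higher at 40 minutes and 0 at least 2-fold lower; at 1.5-fold the counts were 438 and 4. Their median difference was 0.24, against 0.04 for genes under 100 FPKM in both columns. Their quartiles were 0.12 and 0.39, and 91.1% of them lay above 0. The 4 genes at 1.5-fold lower were HSPA1L, ISCA2, PERM1 and TAS2R43, of which HSPA1L is a member of the HSP70 chaperone family.

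The read depth behind a value could only be estimated. Multiplied by the span of the gene in kilobases, introns included, the lowest FPKM values pile up at 4.06 in the 0-minute column and at 3.53 in the 40-minute column, and no such pile appears with the spliced length. The values thus appear to count reads over the whole transcribed span, and if 1 such step is 1 read, the 40-minute pool was 1.15 times as deep as the 0-minute pool. Only 14.7% and 12.6% of low values were whole numbers of steps within 0.02, so reads were not recovered and steps serve here only as a guide to depth. Of 12386 genes with 100 or more steps in both columns, 19 were at least 2-fold higher at 40 minutes and 0 at least 2-fold lower. These 19 were CYP4F11, UQCRHL, MARCKSL1, SLC25A5, ACTG1, FGA, IGF2, AEN, ZNF331, APBB3, RPL10, PCBP1, INS-IGF2, CYP4F12, ADAP1, HELZ2, EIF5A, GALK1 and TUBB2B. INS-IGF2 overlaps IGF2 and shares its reads.

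Short genes gained more than long genes. The median difference of coding genes was 0.38 for spans under 2 kb, 0.33 for 2 to 5 kb, 0.21 for 5 to 20 kb, 0.12 for 20 to 50 kb, 0.09 for 50 to 100 kb and 0.07 over 100 kb. The order of the 6 classes was the same among coding genes at 100 FPKM or more, where the medians ran from 0.48 under 2 kb to 0.15 over 100 kb. The share of genes at least 2-fold higher at 40 minutes was 18.8% under 2 kb and 5.67% at 2 to 5 kb, and 0 of 1897 genes over 100 kb reached it. Depth moved with span: the median at 0 minutes was 15.9 steps per gene under 2 kb and 2215 over 100 kb. The interquartile range of the differences was 0.92 under 2 kb and 0.18 over 100 kb. The part of depth in the share of 2-fold genes was not tested.

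**Figure D1:**
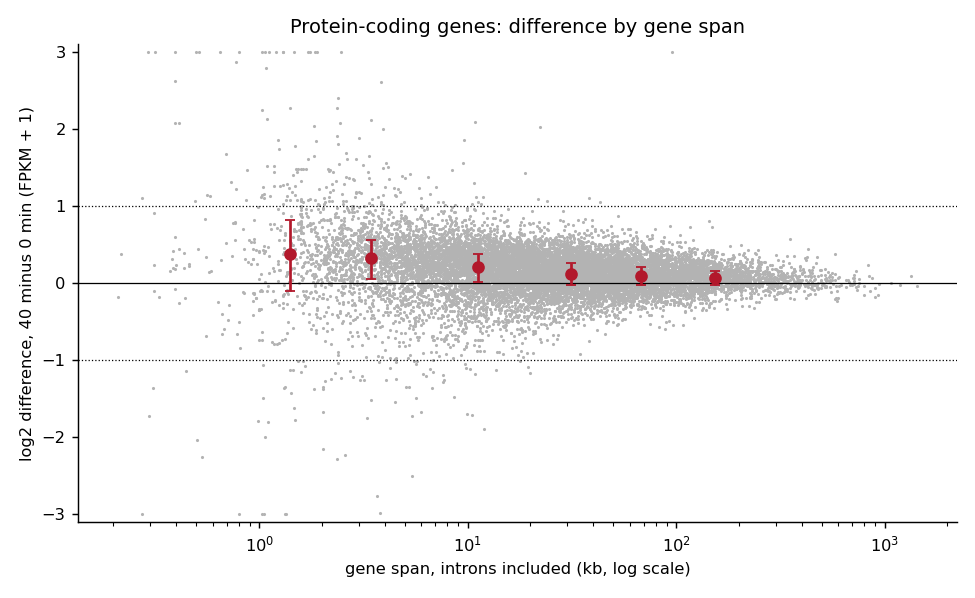
Log2 difference between 40 and 0 minutes (vertical axis, log2 of FPKM + 1) for each protein-coding gene against its span in kb on a log axis. Grey points are genes, drawn at the edge where they lie beyond 3 in either direction; red points are the medians of 6 span classes with their quartiles, which come down from 0.38 under 2 kb to 0.07 over 100 kb, and dotted lines mark 2-fold.

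Exon number gave a narrower range of medians than span. Coding genes of 1 exon had a median of 0.31, those of 2 to 4 exons 0.17 and those of 5 or more exons 0.13. Within each of the 6 span classes the median was higher for 5 or more exons than for 2 to 4. It was 0.40 against 0.36 under 2 kb, where genes of 1 exon stood at 0.39, 0.36 against 0.30 at 2 to 5 kb, and 0.23 against 0.17 at 5 to 20 kb.

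The gradient over span was not the same in the later steps. For coding genes at 100 FPKM or more at 0 or 40 minutes, the median difference from 40 to 80 minutes was 0.48 under 2 kb, 0.65 at 5 to 20 kb and 0.11 over 100 kb, so that middle-sized genes gained most. From 80 to 105 minutes the median was -0.07 under 2 kb and 0.29 over 100 kb. From 105 to 165 minutes it was -0.45 under 2 kb and 0.26 over 100 kb. Among these 4 steps, the first is thus the only one with the highest median in the shortest class. Neighbouring steps share a column, so a value that is high by chance at 40 minutes raises the first step and lowers the second.

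**Figure D2:**
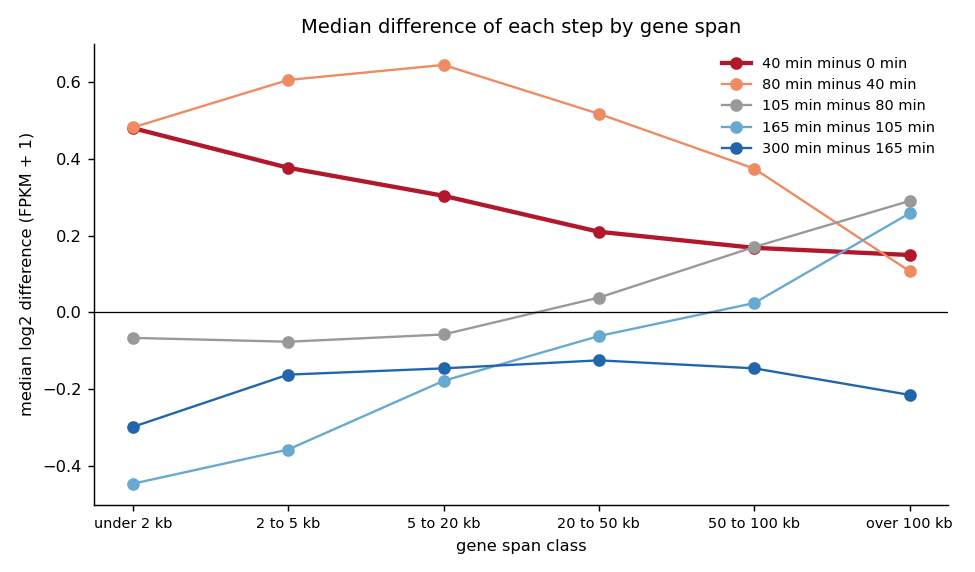
Median log2 difference (FPKM + 1) of each step of the release, in 6 gene span classes, for coding genes at 100 FPKM or more at 0 or 40 minutes. The thick line is 40 minus 0 minutes and comes down from 0.48 to 0.15; the later steps peak in longer genes.

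Several immediate early genes stood at over 1000 FPKM at both times, and 42 of the 45 described were above 0 as deposited. Of coding genes at 100 FPKM or more, 91.1% were above 0. In absolute terms the 15 highest gains belonged to NR4A2, ID2, FOSB, CITED2, DUSP1, MALAT1, PPP1R15A, TM4SF1, CHMP1B, FOS, SAT1, ZFP36, SLC38A2, HNRNPA1 and HES1. FOS, a subunit of the AP-1 transcription factor, stood at 3819 FPKM at 0 minutes, 5363 at 40, 1803 at 80, 1078 at 105, 455 at 165 and 141 at 300 minutes. FOSB, its close relative, stood at 7246, 9849, 5556, 4516, 1967 and 364 FPKM at the same times. Both were highest at 40 minutes and lowest at 300 minutes.

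Of 46 immediate early genes, 45 passed the filter. Their median difference was 0.35 against 0.14 for all genes, and 38 lay above the all-gene median. Their median span was 4.8 kb, and 43 were coding genes at 100 FPKM or more. All coding genes of that level with spans of 2 to 5 kb had a median of 0.38, with 93.4% above 0. 0 of the 45 were 2-fold higher; ARC, at 14.7 FPKM at 0 minutes and 4.49 at 40, was the 1 member at least 2-fold lower, on about 12.4 steps at 0 minutes. Among genes named for their losses and not through this list, IER5L was lower, at 647 and 480.0 FPKM. Among the larger gains on the log2 scale were those of the NR4A orphan nuclear receptors and of BTG2, an antiproliferative gene that went from 1995 to 3222 FPKM (log2 0.69). NR4A2 went from 2465 to 4766 FPKM (log2 0.95), NR4A3 from 1032 to 1802 (0.80) and NR4A1 from 1755 to 2799 (0.67). By 300 minutes NR4A3 was at 29.7 FPKM and NR4A1 at 52.6. Of the early growth response genes, EGR3 had a log2 difference of 0.50, EGR2 went from 150.0 to 174 FPKM (below 0 with equal totals and after quantile normalization) and EGR4 from 13.7 to 12.3. EGR1 had a log2 difference of 0.28, JUNB of 0.12 and MCL1, a survival factor, of 0.30; EGR1 and JUNB were below 0 when the columns were scaled to the same total, and with MCL1 after quantile normalization. IER3, also named for its loss in FPKM, was at 819 FPKM at 0 minutes and 755 at 40, then 1343 at 80.

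The highest of the 6 release columns was 40 minutes in 18 of the 45, against 11.5% of all 18189 genes and 5.85% of coding genes at 100 FPKM or more; in both sets 80 minutes was the commonest. The list was written with earlier results of these data known, and its count is a description.

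Promoters of 4 of these genes are shown because each holds a TATA box close to the start site. Most members lack it: TATAAA lay 50 to 11 bases before the start in 6 of 32 immediate early promoters (18.8%), against 2.4% of all coding genes. Within 250 bases before to 50 after the start, TGACGTCA was in 4 of the 32 and TGACGTAA in 3. Each line gives 60 bases before and 20 bases from the start of the gene, from RefSeq on GRCh38.p14, with TATAAA and, where present, the cAMP response element TGACGTCA or its relative TGACGTAA in capitals. FOS lies at chr14:75278768-75278847, plus strand, FOSB at chr19:45467936-45468015, plus strand, PPP1R15A at chr19:48872361-48872440, plus strand, and DUSP1 at chr5:172771176-172771255, minus strand. PPP1R15A, a phosphatase subunit of the stress response, had a log2 difference of 0.35, and DUSP1, a phosphatase that switches off MAP kinases, of 0.34 (below 0 after quantile normalization).
FOS: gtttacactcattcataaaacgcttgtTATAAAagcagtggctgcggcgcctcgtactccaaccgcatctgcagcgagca
FOSB: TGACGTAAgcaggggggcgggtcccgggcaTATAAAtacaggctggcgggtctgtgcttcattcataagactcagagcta
PPP1R15A: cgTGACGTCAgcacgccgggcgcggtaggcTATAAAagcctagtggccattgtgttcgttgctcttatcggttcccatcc
DUSP1: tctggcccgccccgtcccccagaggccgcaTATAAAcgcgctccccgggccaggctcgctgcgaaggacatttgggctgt

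Some other CREB-linked genes were higher along with the NR4A genes, which belong to that list too. Of 17 genes of gluconeogenesis and the CREB response, 14 passed the filter, their median was 0.53 and 11 lay above the all-gene median. The salt-inducible kinase gene SIK1 stood at 1457 FPKM at 0 minutes, 2191 at 40 and 1333 at 80. The clock gene PER1 stood at 384, 620.3 and 505 FPKM. IGFBP1, which encodes an insulin-like growth factor binding protein, stood at 25.05, 44.3 and 13.4 FPKM. The enzymes themselves did not share this: PCK2 had a log2 difference of -0.20, G6PC1 of -0.10 and FBP1 of -0.05.

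Fibrinogen genes and some other liver genes had a peak at 40 minutes that was gone at 80 minutes. Fibrinogen, the clotting protein, is built from the products of 3 neighbouring genes. FGA stood at 535 FPKM at 0 minutes, 1197 at 40, 161 at 80, 124 at 105, 289 at 165 and 685 at 300 minutes, and at 3502 in asynchronous cells. FGB went from 763 to 1150.4 and then 547 FPKM, and FGG from 567 to 797 and then 281. All 3 were thus higher at 40 minutes than at 0 or at 80 minutes, with FGA the most (log2 1.16). Both FGA transcripts gave like values, with log2 differences of 1.11 for the longer and 1.20 for the shorter.

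Some other secreted protein genes were also highest at 40 minutes among the first 3 times, and others were lower. APOA2, an apolipoprotein of high-density lipoprotein, stood at 101, 214 and 108 FPKM at 0, 40 and 80 minutes. TTR, the thyroxine carrier, stood at 96.9, 158 and 58.0, and VTN, or vitronectin, at 481, 722 and 369. ALB, the albumin gene, stood at 128, 100.4 and 166 FPKM and AFP, its fetal relative, at 133, 101 and 182. Both had their lowest release value at 40 minutes and were at 662 and 1078 FPKM at 300 minutes. APOA1, the main apolipoprotein of high-density lipoprotein, was lower at 40 minutes (90.5 to 51.9 FPKM), as were APOE (320.2 to 261), KNG1 (21.2 to 12.4) and APOH (37.8 to 27.6). Of 61 liver secreted and metabolic genes, 53 passed the filter; 33 were above 0 and 29 above the all-gene median, with a median of 0.17 that became -0.11 when the columns were scaled to the same total. APOA2 and FGA were the 2 members at least 2-fold higher.

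Liver transcription factors showed the same spread. CEBPA, a factor of liver and fat differentiation, went from 21.5 to 67.6 FPKM (log2 1.61), on about 13.9 and 50.4 steps, and stood at 1702 in asynchronous cells. FOXA1, a pioneer factor, went from 214 to 385 and 1069 FPKM. Of 31 such genes, 19 lay above the all-gene median. Of 37 acute phase and cytokine genes, 33 passed; 27 lay above it, 14 had their highest release value at 40 minutes (11.5% of all genes did), and the chemokine gene CXCL8 went from 3041 to 4146 and then 2697 FPKM.

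A wider search for the same shape used coding genes at 100 FPKM or more whose 40-minute value was at least 1.5 times both the 0-minute and the 80-minute value. This ratio was chosen after the values were seen, in place of a lower one that was tried first and that more genes met. Of 6395 such genes 57 met it (0.891%), 18 of them copies of the multicopy deubiquitinase family USP17L. By list, it was met by 4 of 43 immediate early genes, 5 of 17 liver secreted genes, 3 of 26 acute phase genes and 4 of 9 CREB-linked genes, lists that share members. It was met by 0 of 79 cytosolic ribosomal protein genes, 0 of 43 spliceosome genes, 0 of 33 proteasome genes and 0 of 33 heat shock genes. At the overall share of 0.891%, lists of these sizes would hold few such genes or none, so these counts of 0 show no contrast. Beyond these lists it held ACTG1, cytoplasmic gamma-actin, and ZNF331, a zinc finger gene that stood at 213, 460.3 and 148 FPKM. Both ratios use the 40-minute column, so a value high by chance there would be picked.

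**Figure D3:**
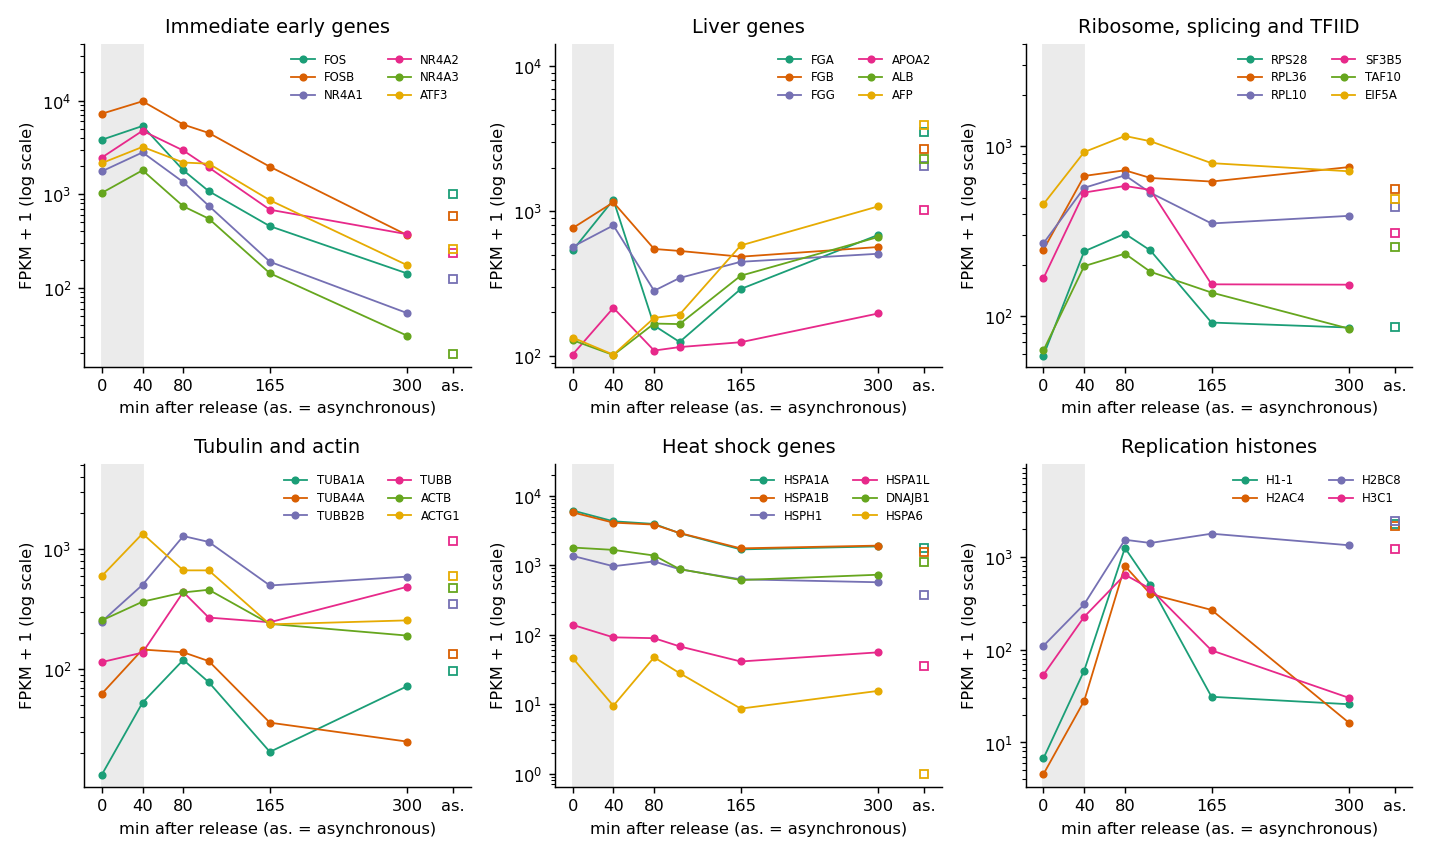
FPKM + 1 on a log axis against minutes after release for named genes in 6 groups; the shaded strip is 0 to 40 minutes and the open squares are asynchronous cells. Each point is 1 pooled value. FOS, the NR4A genes, the 3 fibrinogen genes and ACTG1 peak at 40 minutes. The ribosome and histone genes and the tubulin genes other than TUBA4A go on upward to 80 minutes. The HSPA1 genes are highest at 0 minutes.

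Genes of the translation machinery were higher at 40 minutes as a group. All 79 cytosolic ribosomal protein genes were above 0, 76 were above the all-gene median and 4 reached 2-fold. They are short, with a median span of 4.54 kb. Measured from the median of all genes tested, of any RNA class, in each gene's own span class, their median was 0.29. Coding genes of 2 to 5 kb at 100 FPKM or more had a median of 0.38, against 0.54 for this list. Among 40 translation factors, 35 lay above the all-gene median, with EIF5A, an elongation factor, at 456 FPKM at 0 minutes and 925 at 40, EIF1 at 1537 and 2529, and the poly(A)-binding protein gene PABPC1 at 1386 and 2347. Of 44 spliceosome genes 39 and of 33 proteasome genes 33 lay above the all-gene median. Their medians were 0.37 and 0.30, beside 0.24 for coding genes at 100 FPKM or more. The proteasome median was -0.01 after quantile normalization.

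Mitochondrial genes stayed closer to the bulk. The 77 mitochondrial ribosomal protein genes had a median of 0.15, with 42 above the all-gene median, and this became -0.14 when the columns were scaled to the same total and was also below 0 after quantile normalization. Measured from the same span-class medians over genes of any RNA class, the list stood at -0.05. Its members ran from -0.42 for MRPL17 (178 to 133 FPKM) to 1.45 for MRPL34 (69.6 to 191 FPKM). The 76 nuclear genes of the respiratory chain had a median of 0.24, which became -0.05 on the same scale; cytochrome c, CYCS, was at 1595 FPKM at 0 minutes, 2591 at 40 and 2017 at 80. Both lists thus lay below the cytosolic ribosomal proteins, whose lowest member was at 0.07; no test of that difference was possible.

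Several of the largest gains were in very short genes. RPS28, a small-subunit ribosomal protein gene of 1.84 kb, stood at 57.6 FPKM at 0 minutes, 240.0 at 40, 305 at 80, 243 at 105, 90.8 at 165 and 84.7 at 300 minutes. RTL8A, a gene derived from a retrotransposon, went from 42.9 to 145 FPKM, and its close relative RTL8C from 304 to 731. BEX3 went from 108 to 304 FPKM. These genes had about 26.1, 13.1, 88.4 and 44.5 steps at 0 minutes, so their folds are less precise than those of longer genes. Promoters are shown for RPS28 (chr19:8321436-8321515, plus strand) and CEBPA (chr19:33302515-33302594, minus strand), both with TATAAA in capitals, and for TAF10 (chr11:6612197-6612276, minus strand), a TFIID subunit gene with a cAMP response element in capitals and no TATAAA in this stretch.
RPS28: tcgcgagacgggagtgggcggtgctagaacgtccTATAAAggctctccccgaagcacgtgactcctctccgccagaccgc
CEBPA: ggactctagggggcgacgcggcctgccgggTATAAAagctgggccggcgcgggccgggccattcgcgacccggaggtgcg
TAF10: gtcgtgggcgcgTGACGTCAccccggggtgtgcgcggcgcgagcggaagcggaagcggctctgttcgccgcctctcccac

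3 of the coding genes with large gains are intronless copies of longer genes, with which they may share reads. NACA2 went from 18.9 to 145 FPKM, and was lower at 80 minutes than at 0, on about 3.62 and 31.9 steps at 0 and 40 minutes, while its parent NACA went from 823 to 1119. EIF5AL1 went from 23.7 to 149 FPKM, with EIF5A as its parent. UQCRHL went from 198 to 550.3 FPKM, while its parent UQCRH went from 175 to 237. The copies were taken for their large gains, so a larger difference than in the parent follows from that choice, and the labels do not say how reads were shared out. ATP5MGL, a copy of ATP5MG, went the other way, from 115 to 80.6 FPKM, while ATP5MG went from 220.4 to 278. The parents and this pair were named after their values were seen.

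The tubulin list had a median 0.34 above the all-gene median, the third highest of the 34 lists. All 16 tubulin genes passed the filter, 14 lay above it and 3 reached 2-fold. TUBA1A, an alpha-tubulin gene, stood at 12.3 FPKM at 0 minutes, 51.7 at 40, 119 at 80, 77.0 at 105 and 19.5 at 165 minutes. It had only about 11.9 steps at 0 minutes and 57.7 at 40, so its fold is imprecise. TUBA4A stood at 61.5, 145 and 137 FPKM at 0, 40 and 80 minutes, and the beta-tubulin gene TUBB2B at 248, 503 and 1280.4. TUBB, another beta-tubulin gene, had a log2 difference of 0.26 at 40 minutes, which was below 0 with equal totals, and stood at 437 FPKM at 80 minutes against 137 at 40.

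Of 43 genes of the actin cytoskeleton and targets of serum response factor, 38 lay above the all-gene median, and ACTG1 and TMSB10 reached 2-fold. ACTG1, cytoplasmic gamma-actin, stood at 595 FPKM at 0 minutes, 1341 at 40 and 663 at 80. ACTB, cytoplasmic beta-actin, stood at 254, 363 and 434 FPKM. The 2 actins therefore had different courses after 40 minutes, ACTG1 going down and ACTB going up. TMSB4X, which encodes the actin-binding peptide thymosin beta 4, went from 487 to 857 FPKM, and ZYX, a focal adhesion protein gene, from 824 to 1271. The 26 YAP-TEAD targets that passed had a median of 0.31, with all 26 above 0 as deposited. Coding genes at 100 FPKM or more had a median of 0.24, with 91.1% above 0. CCN2, a secreted matrix protein gene of the YAP-TEAD pathway, went from 1307 to 2221 and 3538 FPKM.

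Some inducible heat shock genes were lower at 40 minutes; they are described together after their values were seen. HSPA1A and HSPA1B, 2 nearly identical copies of inducible HSP70 that can share reads, had the largest losses in absolute terms. HSPA1A stood at 6147 FPKM at 0 minutes, 4299 at 40, 3938 at 80, 2891 at 105, 1692 at 165 and 1868 at 300 minutes, and HSPA1B went from 5777 to 4110.3. HSPH1, an HSP110 chaperone of 25.5 kb and about 8576 steps at 0 minutes, went from 1365 to 968 FPKM. HSPA6, another inducible HSP70, went from 45.3 to 8.50 and back to 46.3 FPKM at 80 minutes, on about 26.5 and 5.71 steps at 0 and 40 minutes.

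Other chaperone genes lay on both sides of 0. The 35 members of the heat shock and chaperone list had a median of 0.11, against 0.14 for all genes, which became -0.19 with equal totals, and 22 lay above 0. DNAJB1, a heat-inducible co-chaperone, went from 1799.8 to 1665 FPKM, whereas DNAJA1 went from 1509 to 1909.6 (below 0 after quantile normalization) and CRYAB, a small heat shock protein gene, from 14.7 to 21.9. HSPA5, the chaperone of the endoplasmic reticulum, went from 1480.4 to 2061 FPKM and DNAJB9, another target of the unfolded protein response, from 594 to 886 and 2064. Members of the ATF4 and unfolded protein response list lay above the all-gene median in 21 of 27 cases, with CALR, or calreticulin, at 539 and 968 FPKM and SLC7A5, an amino acid carrier gene, at 863 and 1519. The promoter of HSPA1A (chr6:31815483-31815562, plus strand) holds TATAAA at 30 bases before the start, as that of FOSB does, so this element was present in genes of both directions.
HSPA1A: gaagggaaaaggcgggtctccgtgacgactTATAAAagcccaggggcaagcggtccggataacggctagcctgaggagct

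Histone genes of the replication-dependent class, whose transcripts are made mainly in S phase and are not polyadenylated, included genes with large folds from very low levels. Of 57 in the table, 35 passed the filter through either column, and 12 of these were at least 2-fold higher at 40 minutes. Of the 12, 6 were under 10 FPKM at 0 minutes and passed only through the 40-minute column, so they had to be higher there, and the count is no support for a gain of the class. H3C1 went from 52.5 to 224 FPKM and reached 637 at 80 minutes. H2BC8 went from 109 to 306 and 1516 FPKM. The summed level of the 16 H2B genes was 2180 FPKM at 0 minutes, 2968 at 40, 9602 at 80 and 11691 in asynchronous cells, so the larger increase came after 40 minutes. Their genes are near 0.438 kb long; H3C1 had about 5.31 steps at 0 minutes and 26.0 at 40. Copies share sequence, and H4C14 and H4C15 were listed with identical values. The promoters of H1-1 (chr6:26017768-26017847, minus strand) and H3C1 (chr6:26020391-26020470, plus strand) are shown because both have TATAAA near the start.
H1-1: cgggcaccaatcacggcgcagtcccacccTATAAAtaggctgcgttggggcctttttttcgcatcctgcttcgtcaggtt
H3C1: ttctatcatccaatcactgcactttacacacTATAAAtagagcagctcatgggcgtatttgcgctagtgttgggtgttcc

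Variant histone genes, which are transcribed throughout the cycle, were less spread. Of 12, 11 lay above the all-gene median and 0 reached 2-fold; H2AZ1 went from 1065 to 1569.8 FPKM and H3-3B from 2486 to 3677.

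Targets of p53 and antioxidant genes were higher in most cases, but the medians of 31 of the 34 lists lay above the all-gene median. For p53 targets and antioxidant genes the medians were 0.43 and 0.39, beside 0.24 for coding genes at 100 FPKM or more. Of 32 p53 targets, 30 passed and 27 lay above the all-gene median. PMAIP1, which encodes the death inducer NOXA, went from 178 to 324 FPKM, PLK2 from 1225 to 2133, BAX from 329 to 529 and MDM2, the ubiquitin ligase of p53, from 208 to 316. Among 30 NRF2 and antioxidant genes, 25 lay above the all-gene median. The ferritin heavy chain gene FTH1 went from 740.0 to 1295 and 2072 FPKM, and the glutathione peroxidase gene GPX4 from 323 to 528 and 615. HMOX1, heme oxygenase, was lower at 40 minutes, at 73.6, 51.9 and 161 FPKM at 0, 40 and 80 minutes.

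Metallothioneins, small metal-binding proteins, had a short peak. MT2A stood at 60.2 FPKM at 0 minutes, 146 at 40, 81.1 at 80, 33.2 at 105 and 5.44 at 165 minutes. MT1X stood at 74.6, 144, 98.0, 55.9 and 47.3 FPKM at the same times, and MT1E at 98.7, 141 and 84.2 at the first 3. MT1G was lower at 40 minutes, at 15.8 and 5.61 FPKM, on about 5.16 steps at 0 minutes. The copies are similar in sequence, and their split of reads is uncertain. The promoter of MT2A (chr16:56608524-56608603, plus strand) also has TATAAA.
MT2A: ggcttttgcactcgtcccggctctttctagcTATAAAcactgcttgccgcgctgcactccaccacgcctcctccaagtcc

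Genes of mitosis were near the all-gene median at this step. Of 45, 24 lay above it, and 19 had their highest release value at 40 minutes, against 11.5% of all genes. UBE2S, a ubiquitin-conjugating enzyme of the anaphase-promoting complex, went from 831 to 1220.1 and stayed at 1232 FPKM at 80 minutes, then stood at 627 at 105 minutes. AURKA, a spindle kinase, went from 832 to 1130.0, 933 and 585 FPKM. Genes of G1/S and DNA replication had a median of 0.23, or -0.06 with equal totals, and PCNA, the sliding clamp, went from 180.4 to 314 and 925 FPKM. CDKN2C, an inhibitor of CDK4 and CDK6, went from 79.7 to 134 and 634.

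Glycolysis genes were mostly above the all-gene median, in 17 of 23 cases. ALDOA, or aldolase A, went from 271 to 526 FPKM, SLC2A1, the glucose carrier, from 226 to 399.8 and GAPDH from 613 to 1042. Cholesterol synthesis genes lay above the all-gene median in 24 of 28 cases. The medians of these 2 lists were 0.34 and 0.28, beside 0.24 for coding genes at 100 FPKM or more. Lists near the bulk were nuclear pore and envelope genes (0.18), integrins and matrix genes (0.21) and RNA polymerase II and TFIID genes (0.21), each below 0 with equal totals, and the first 2 also after quantile normalization. Hosts of small nucleolar RNAs and nuclear noncoding RNAs had a median of 0.43, with MALAT1 at 4917 FPKM at 0 minutes, 6911 at 40 and 4388 at 80.

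**Figure D4:**
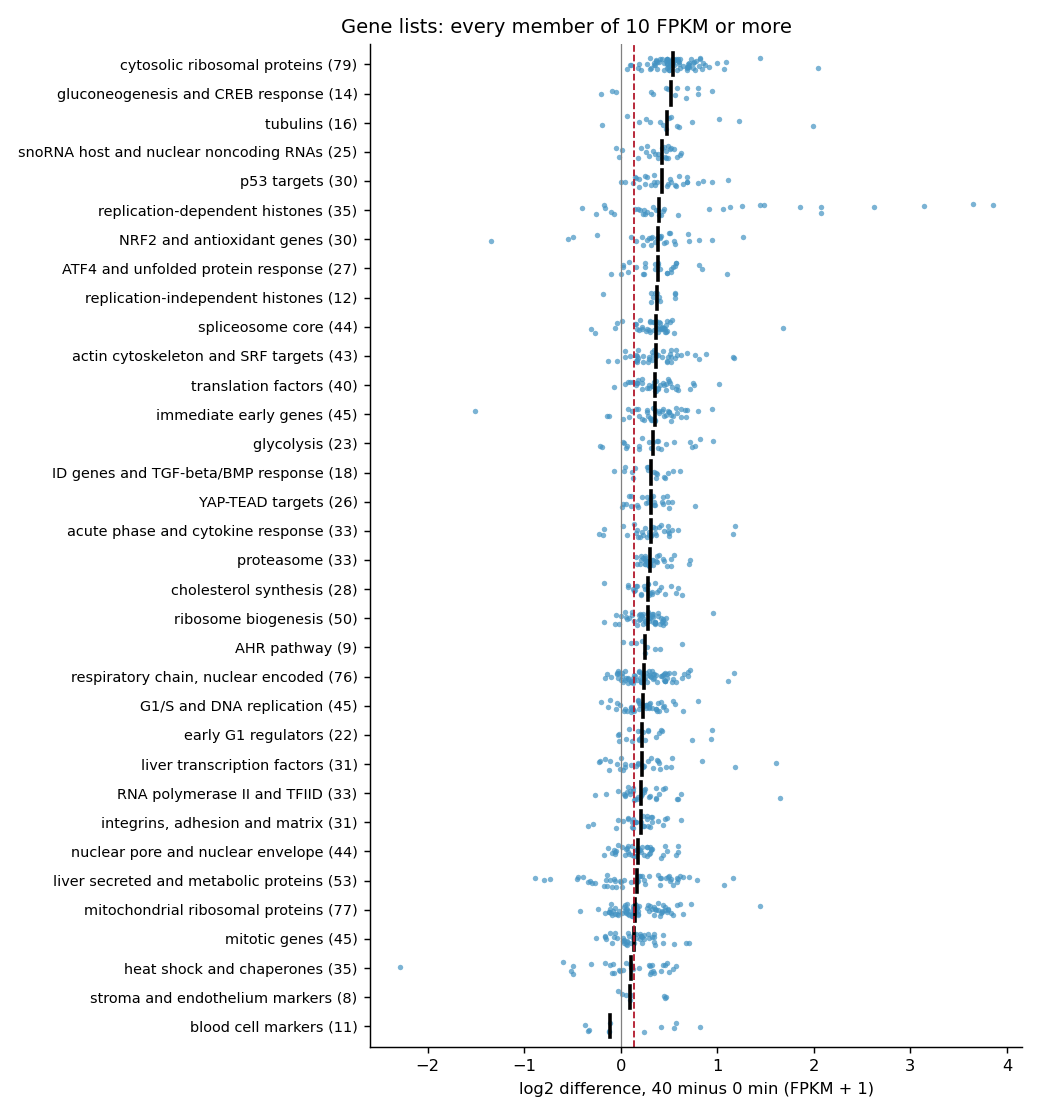
Log2 difference between 40 and 0 minutes (FPKM + 1) of every list member at 10 FPKM or more in either column, with the number of such members in brackets. Black bars are list medians, the dashed line is the all-gene median of 0.14; cytosolic ribosomal proteins stand at the top (0.54) and blood cell markers at the bottom (-0.11).

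Outside the lists, the genes with the largest folds were at low levels. CYP4F11, a cytochrome P450 gene of 22.3 kb, went from 18.8 to 79.9 FPKM and back to 31.0 at 80 minutes, on about 103 and 504 steps, and its neighbour in family CYP4F12 from 24.9 to 53.3 and 20.5. IGF2, insulin-like growth factor 2, went from 345 to 753 and 714 FPKM. The lncRNA genes FAM138C, FAM138D and FAM138E, copies of one another, were higher at 40 minutes on 0.612, 0.618 and 1.59 steps at 0 minutes. On the lower side, the homeobox gene HOXB7 went from 39.6 to 4.16 and back to 23.9 FPKM, on about 37.0 and 4.47 steps. MIR663AHG, a noncoding host gene, was the named gene with the deepest loss on over 100 steps at 0 minutes, at 33.3 FPKM at 0 minutes, 6.73 at 40 and 3.04 at 80. SLC10A5, a carrier gene, went from 74.8 to 15.1 and then 122 FPKM.

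The TATA box was the motif most over the background in genes 2-fold higher at 40 minutes. Of 11734 coding genes with a promoter in the table of 250 bases before to 50 after the start, TATAAA on either strand was found in 6.8%; among the 142 of the 2-fold higher genes it was in 26.1%, and among the 66 of the 2-fold lower genes in 15.2%. Short genes hold it more often, with 13.8% of all coding genes under 5 kb. Restricted to 50 to 11 bases before the start on the gene's strand, the shares were 2.4% of all, 19.7% of the higher and 10.6% of the lower genes, and 8.4% of those under 5 kb. Histone genes carry many of these: without them the near-start element was in 19 of 127 higher genes, against 6.8% of coding genes under 5 kb without histones. Of the 19, HSPB6, MT1B, MBD3L2, PRAMEF2 and TFAP2A were under 10 FPKM at 0 minutes. These passed the filter only through the 40-minute column, so they had to be higher there. Among coding genes at 100 FPKM or more and 1.5-fold higher, the near-start share was 5.1% of 352, against 2.1% of all coding genes at 100 FPKM or more. In the set 1.5-fold above both 0 and 80 minutes, TATAAA was in 1 of 32 promoters (3.1%) in either window. This share is below the 6.8% of all coding genes in the wide window and above their 2.4% near the start. It rests on 1 promoter, so neither difference can be read.

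In the 2-fold higher genes the shares of the other 12 motifs lay closer to the background or below it. The cAMP response element TGACGTCA was in 2.8% of them and 3.1% of all, TGACGTAA in 1.4% and 0.7%, the AP-1 site TGACTCA in 4.9% and 3.4%, and the CCAAT box in 42.3% and 36.7%. The GC box GGGCGG was in 49.3% of the higher, 30.3% of the lower and 66.0% of all promoters, and the ETS site CCGGAAG in 10.6%, 7.6% and 17.8%. The motif TEAD (GGAATG) was in 13.4% and 11.1%, and the E-box CACGTG in 4.2% and 9.7%. YY1 (AGATGGCG), NRF1 (GCATGCGC), CTCGCGAG and ACTACA were each less frequent in the higher genes than in all. Among the lower genes TEAD was in 19.7% (13 of 66), the AP-1 site in 6.1% and ACTACA in 10.6%. These shares, and those of YY1 and the E-box, exceeded the shares in the higher genes. The CCAAT box, TGACGTCA, TGACGTAA and NRF1 were less frequent in the lower than in the higher genes. In the 40-minute peak set TEAD was in 9 of 32 promoters (28.1%) and TGACGTCA in 3 (9.4%). The ETS site was in 2 (6.25%) and the E-box in 1 (3.1%), both below all genes. TATAAA and the CCAAT box do not overlap in letters, and a match is a description of the letters and not a bound site. The near-start window was added after the values were seen, and 12 gene sets were examined in all.

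**Figure D5:**
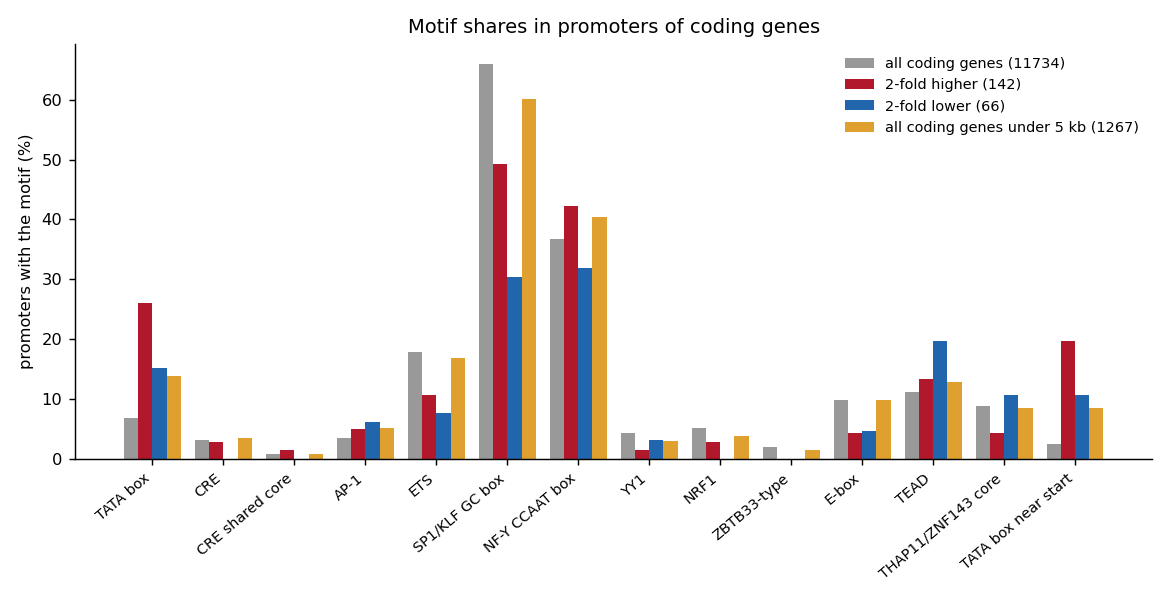
Share of coding gene promoters (%) that hold each of 13 motifs within 250 bases before to 50 after the start, either strand, and the TATA box 50 to 11 bases before the start, for all genes, 2-fold higher, 2-fold lower and short genes. The TATA box is at 26.1% in the 2-fold higher genes and 6.8% in all; the GC box is at 49.3% and 66.0%.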

How the data were processed

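EU-labelled RNA was captured, ribo-depleted and made into stranded libraries, per the labels' protocols. Alignment used Bowtie2 2.2.9 and TopHat, with bedtools and bcl2fastq also listed and hg19 as the build, per the submitters' processing notes, which do not say how reads were counted or libraries pooled. The authors deposited FPKM values for 48205 RefSeq transcripts, 1 pooled column for each of 7 groups, used as they are. The unlabelled and spike-in libraries were not analysed here.

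Transcripts were matched by accession to symbols of GRCh38.p14 (47127, or 97.8%) and collapsed to genes by the mean of distinct value sets. Genes with 10 FPKM in either column were kept, and log2(FPKM + 1) differences were computed, which understate the folds of low genes. Spans and exon numbers came from GENCODE release 29 on GRCh38 by RefSeq accession, for 17350 genes kept; no hg19 coordinates were used. Named genes were the 15 largest log2 differences in each direction among coding and long noncoding genes at 10 FPKM or more in the higher and 1 in the lower column, the 15 largest with 100 and 10 FPKM, the 15 largest FPKM differences, the 4 largest of each of 34 lists and a fixed set of common genes; other members of the lists, the genes of the 100-step and 1.5-fold sets, and the parents of copies were named after their values were seen. The genes and lists were chosen with earlier results of these data known. The split by exon number, the medians relative to span classes and the sets at 1.5-fold were added after values were seen; a lower ratio for the 40-minute peak and a pyrimidine-tract start at promoters were also looked at and are not reported. The counting functions were tested on simulated data. Promoters came from RefSeq for 11734 of 14463 coding genes. Python 3.11.15 and pandas 2.3.3 were used.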

Additional observations from a re-analysis of the deposited data

How the results depend on the processing

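Each value was recomputed under 13 alternatives, 1 of them, the limit of 100 steps, chosen after the data were seen. No paired analysis was possible because the table holds 1 pooled column for each group; for the same reason no library could be left out, and the 1 pooled value per group limits every difference. Genes at least 2-fold higher and lower, 529 and 323 as reported, numbered 917 and 657 with a filter of 1 FPKM in either column, 259 and 114 with 10 FPKM in both, 277 and 146 with 50 FPKM in either, 181 and 85 among protein-coding genes, and 19 and 0 among genes with 100 steps in both columns; these sets test fewer or more genes. Scaling to equal totals gave 363 and 493. The pseudocounts, the ways of collapsing transcripts and the other scalings moved both counts by less than 1.5 times.

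Of 34 list medians, 18 changed sign under some alternative, 16 of them under a scaling only; the cause was not tested. With equal totals the medians were -0.038 for the AHR pathway, -0.061 for G1/S and DNA replication, -0.081 for RNA polymerase II and TFIID, -0.012 for cholesterol synthesis, -0.069 for early G1 regulators, -0.19 for heat shock and chaperones, -0.084 for integrins, adhesion and matrix, -0.11 for liver secreted proteins, -0.062 for liver transcription factors, -0.14 for mitochondrial ribosomal proteins, -0.15 for mitotic genes, -0.11 for nuclear pore and envelope, -0.052 for the respiratory chain, -0.011 for ribosome biogenesis and -0.17 for stroma markers. After quantile normalization they were -0.056 for ID and TGF-beta genes, -0.045 for cholesterol synthesis, -0.049 for early G1 regulators, -0.23 for heat shock and chaperones, -0.044 for integrins, adhesion and matrix, -0.048 for mitochondrial ribosomal proteins, -0.12 for mitotic genes, -0.052 for nuclear pore and envelope and -0.0067 for the proteasome. Relative to the all-gene median they were -0.031 for heat shock and chaperones and -0.036 for stroma markers. Stroma markers were at -0.024 with a filter of 1 FPKM, and blood cell markers at 0.066 with 10 FPKM in both columns, 0.55 with 50 FPKM in either and 0.49 with 100 steps.

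Of 110 genes with values in the text, 7 changed sign. With equal totals EGR1 was at -0.016, EGR2 at -0.076, JUNB at -0.17 and TUBB at -0.028; after quantile normalization DNAJA1 was at -0.077, DUSP1 at -0.044, EGR1 at -0.12, EGR2 at -0.0085, JUNB at -0.24 and MCL1 at -0.093; relative to the all-gene median JUNB was at -0.017. Of 32 such genes at 2-fold or more, 12 dropped under 2-fold in at least 1 alternative, among them FGA and ACTG1 with equal totals and after quantile normalization, and APOA2, EIF5A, IGF2, TUBB2B and ZNF331 also relative to the all-gene median.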

Other observations

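Copies of the deubiquitinase family USP17L, which sit in repeated arrays, were all higher at 40 minutes. All 27 copies passed the filter, with 22 distinct sets of values, and their log2 differences ran from 0.65 to 1.48. The median copy was at 95.5 FPKM at 0 minutes, 168 at 40, 102 at 80, 43.1 at 300, and was listed at 0 in asynchronous cells. The copies are near-identical and can share reads, so they are not independent.

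Small RNA genes gave many 2-fold differences on very little depth. The median microRNA gene kept had 1.89 steps at 0 minutes and 2.29 at 40, and 228 of 862 were 2-fold higher and 167 2-fold lower. Small nucleolar RNA genes, mostly within introns of host genes, had a median difference of 0.45 over 230 genes, and small nuclear RNA genes of -0.69 over 35. In all, 127 genes kept were listed at 0 at 0 minutes and 87 at 40 minutes, of which 111 and 81 span under 200 bases.

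Transcripts of 1 gene seldom disagreed. Among 4123 genes with more than 1 distinct value, the differences of their transcripts ranged over a median of 0.03 log2 units, and in 12 genes over 1 or more. In BRF1, a subunit of the RNA polymerase III factor TFIIIB, the 2 shortest models went from 33.6 to 80.5 and from 33.8 to 83.1 FPKM, while the longest went from 70.1 to 102 FPKM; this gene was singled out after its values were seen.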
